A study of Mus musculus with 4 samples.

Results

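The 7 genes described here encode the NMDA receptor subunits, Grin1, Grin2a, Grin2b, Grin2c, Grin2d, Grin3a and Grin3b. They were taken by gene symbol from the array annotation, which holds 24185 symbols, and each of the 7 was present. Together they had 11 probes, with a pair of probes each for Grin1, Grin2a, Grin2b and Grin3a and a single probe each for Grin2c, Grin2d and Grin3b. In RNA immunoprecipitation (RIP), an antibody pulls a protein out of a lysate and the RNA that comes with it is measured, here by microarray. Lysate of cortex and hippocampus from male C57BL/6 mice at 8 weeks of age was incubated for 3 h with beads that carried either CPEB2 IgG or control IgG, and the labels name no knockout and no drug. There were 2 experiments and 4 arrays, 2 for each antibody, and in each experiment the lysate was divided between the antibodies. The samples assigned to CPEB2 IgG carry a description that speaks of CPEB3 IgG. The treatment protocol names CPEB2 and the titles abbreviate it, and CPEB2 is used below. The sources used here do not say how many mice went into each lysate, so the p-values do not measure a spread between mice. In the main fit they rest on how far the 2 experiments differ in their change between antibodies, with spread borrowed from all probes tested.

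NMDA receptors are glutamate-gated cation channels assembled from several subunits that need a co-agonist, glycine or D-serine, and that let calcium in when glutamate arrives while the membrane is depolarized. Grin1 encodes the obligatory GluN1 subunit, the Grin2 genes encode the GluN2 subunits, which bind glutamate and set the channel's kinetics, and the Grin3 genes encode the glycine-binding GluN3 subunits. In the forebrain these receptors are known for their part in synaptic plasticity and memory. CPEB2 is an RNA-binding protein of the family that recognizes the cytoplasmic polyadenylation element (CPE) in mRNAs and controls their translation, and the arrays address which mRNAs it binds in this tissue.

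For 5 of the probes, those on which the values below turn, 30 of their 60 bases are given, from 5′ to 3′ as the array annotation gives them. The Grin3a and Grin2b probes are shown because they hold the values furthest above control IgG, and the Grin2c probe because its experiments disagreed. Capitals mark TTTTAT, a form of the CPE, and ATTAAA, a variant of the poly(A) signal.
Grin3a A_52_P531731: agctgccagtcaTTTTATgaaaatgaagtg
Grin3a A_55_P1980471: gagcttgaggagtatcaaaggacgaaccgg
Grin2b A_51_P320357: ctcatttaaatgccaactgaaggccttgtt
Grin2b A_52_P1044964: ggaaggccattgaacctcctgctcctaaga
Grin2c A_55_P1970090: gaacattgggacATTAAAgcaacgttttac
Among the 11 probes, A_52_P531731 of Grin3a was the only one with a match to the CPE as TTTTAT or TTTTAAT on the strand of the mRNA, and 4.54% of all probes on the array had such a match. The Grin2c probe was the only one with a poly(A) signal, searched as AATAAA or ATTAAA on the same strand, against 13.7% of all probes. These matches describe the letters of a 60-base probe and not the rest of the mRNA. Whether a probe lies in coding sequence or in an untranslated region was not analysed here.

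On the mm9 build of the array annotation, both Grin3a probes map to the minus strand of chromosome 4, A_52_P531731 at chr4:49674688-49674747 and A_55_P1980471 at chr4:49678098-49678157. Both Grin2b probes map to the minus strand of chromosome 6, A_51_P320357 at chr6:135680066-135680125 and A_52_P1044964 at chr6:135681653-135681712. The Grin2c probe lies at chr11:115110483-115110542 on the minus strand. On a gene of the minus strand the lower coordinate is the more 3′ one, so the first-named Grin3a and Grin2b probes are the downstream ones.

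No spot was saturated, and 68.4% to 74.1% of the spots of an array stood well above background. With 4 arrays, the precision of every value is limited. The slide places of one antibody were not shared with the other, and the effects of place and antibody cannot be told apart. Values below are either processed signals, the scanner software's intensity of a probe on 1 array, or log2 fold changes of CPEB2 IgG over control IgG after each array was scaled to its 75th percentile. A probe was called higher or lower at an adjusted p below 0.05 in limma. The fit had the experiment as a block and took in the 41134 probes that were well above background on at least 2 arrays. An exact permutation test of a single probe, with 2 arrays against 2, cannot go below p = 0.333 (two-sided). Both antibodies of an experiment met the same lysate, a bulk sample of all its cells, and in which of these cells an mRNA was bound was not measured.

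All 11 subunit probes entered the test, and 10 of them were well above background on all 4 arrays. Grin3a and Grin2b mRNAs were recovered more with CPEB2 IgG than with control IgG, each at 1 of its probes, and no subunit probe was called lower. The 2 probes called higher stand against 12.7% of all probes tested, and the 0 called lower against 14.8%. At an unadjusted limma p below 0.05 there were 3 higher and 0 lower, beside 7241 higher and 9731 lower among all 41134 probes tested. The median log2 fold change of the 11 probes was -0.07, beside a median of -0.20 over all probes tested. Control IgG and CPEB2 IgG arrays did not overlap at 8 probes. At 5 of these 8 the CPEB2 IgG arrays were the higher ones, which was so for 26.4% of all probes tested, and at the other 3 they were the lower ones, as at 39.2% of all probes.

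**Figure D1:**
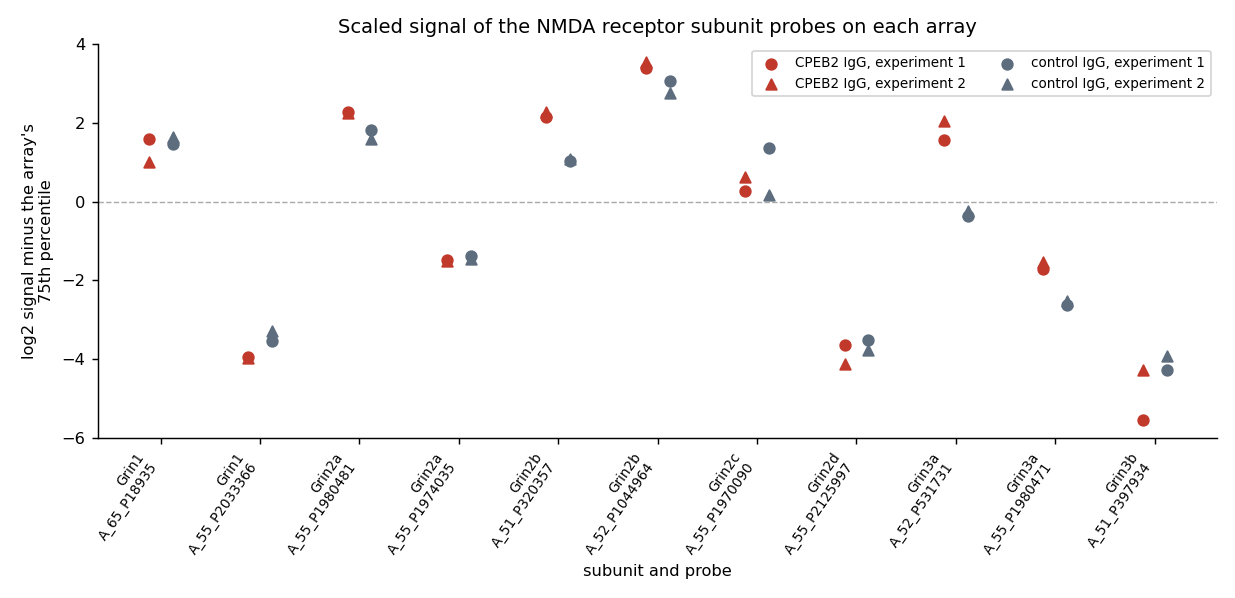
Signal of each of the 11 NMDA receptor subunit probes on the 4 arrays, as log2 of the processed signal minus the array's 75th percentile (vertical axis, log2 units), with CPEB2 IgG in red, control IgG in grey, and a marker shape for each experiment. Both CPEB2 IgG arrays lie above both control IgG arrays at 5 probes, of Grin2a, Grin2b and Grin3a, and levels of different probes are not comparable with each other.

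Grin3a, which encodes the glycine-binding GluN3A subunit, had the highest fold change of the 11 probes. At its downstream probe, A_52_P531731, the processed signal was 1247 and 1727 on the CPEB2 IgG arrays and 347 and 362 on the control IgG arrays. Both CPEB2 IgG arrays were far above both control IgG arrays. The log2 fold change was 1.93 in experiment 1 and 2.28 in experiment 2, a mean of 2.10 ± 0.25 (SD, n = 2) or 4.3-fold, with a limma 95% interval from 1.38 to 2.82 and an adjusted p of 0.0089. This value exceeded those of 96.2% of all probes tested. The upstream probe, A_55_P1980471, gave processed signals of 129 and 144 with CPEB2 IgG against 71.3 and 74.3 with control IgG. Here too the groups did not overlap, and the log2 fold change was 0.93 and 0.98 in the experiments, with a mean of 0.95 ± 0.03 (SD, n = 2) or 1.94-fold. Its adjusted p was 0.0555, or 0.0358 in the limma fit without the experiment block, and over all 16 settings it was called in 7. The log2 fold change of this probe ran from 0.52 under normexp background correction (adjusted p = 0.0485) to 1.45 after centring by GC content (adjusted p = 0.0106).

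Grin2b encodes GluN2B, a glutamate-binding subunit with slow channel closure and a long tail that binds CaMKII. Its downstream probe, A_51_P320357, read 1855 and 2029 with CPEB2 IgG against 911 and 901 with control IgG. The arrays of the same antibody differed little from each other, and the groups were about a factor of 2 apart. Its log2 fold change was 1.11 and 1.19, a mean of 1.15 ± 0.06 (SD, n = 2) or 2.22-fold, with an interval from 0.45 to 1.85 and an adjusted p of 0.0338 (limma). That call was lost, at an adjusted p of 0.146 (limma), when values were centred in 10 bins of GC content, which gave 0.62. It was also lost when dim probes were not filtered. The same held when any 1 array other than CPEB2 IgG replicate 1 was left out, in fits that had no experiment block. The upstream probe, A_52_P1044964, read 4445 and 4921 with CPEB2 IgG against 3726 and 2877 with control IgG. Again both CPEB2 IgG arrays were the brighter ones, but the log2 fold change was 0.34 and 0.80, a mean of 0.57 ± 0.33 (SD, n = 2), and its adjusted p was 0.209.

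Grin2a encodes GluN2A, the glutamate-binding subunit that becomes prominent in the mature forebrain. At A_55_P1980481 the processed signal was 2044 and 1983 on the CPEB2 IgG arrays and 1575 and 1285 on those of control IgG. The groups did not overlap at this downstream probe, yet the log2 fold change of 0.55 ± 0.13 (SD, n = 2) had an adjusted p of 0.199 and a limma interval from -0.15 to 1.26. At A_55_P1974035, the upstream probe, the signals were 150 and 146 with CPEB2 IgG against 169 and 155 with control IgG. The 4 arrays were close to each other there, with those of control IgG slightly brighter, and their log2 fold change of -0.07 ± 0.02 (SD, n = 2) had an adjusted p of 0.87, with the opposite sign under quantile normalization (0.0783), median centring (0.15) and centring by GC content (0.24).

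**Figure D2:**
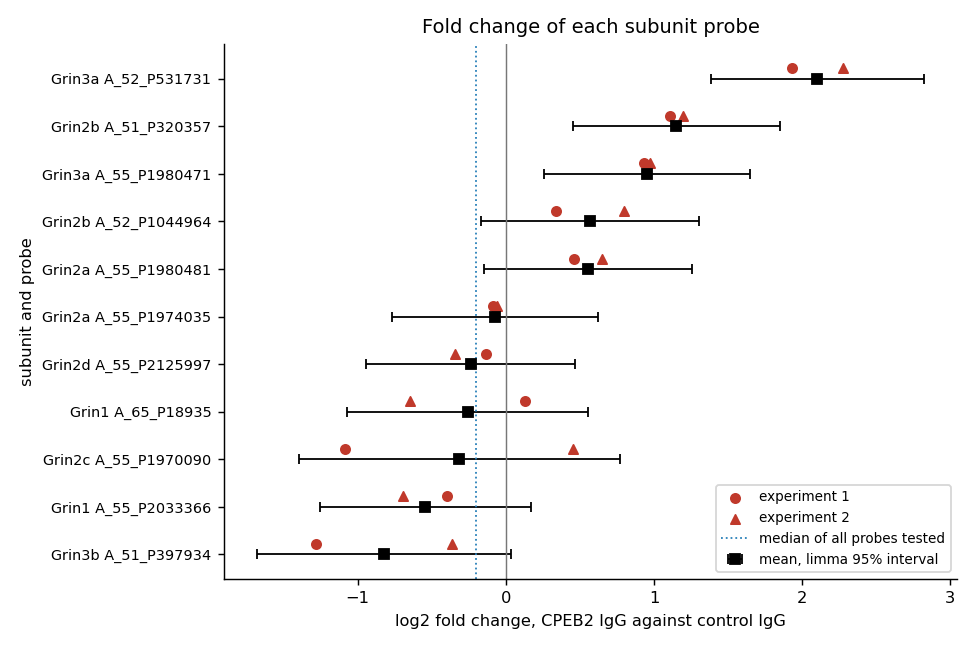
Log2 fold change of CPEB2 IgG over control IgG for the 11 subunit probes (horizontal axis, log2 units), with red markers for the experiments, black squares for their mean, bars for the limma 95% interval and a dotted line at the median of all probes tested. The intervals of both Grin3a probes and of A_51_P320357 of Grin2b lie above 0 before adjustment, and those of the other 8 probes include 0.

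Grin1 encodes GluN1, which every NMDA receptor contains. Its probe A_65_P18935 read 1265 and 840 with CPEB2 IgG against 1223 and 1339 with control IgG. The experiments went opposite ways, with log2 fold changes of 0.13 and -0.65, and the mean of -0.26 ± 0.55 (SD, n = 2, adjusted p = 0.597) became 0.24 when values were centred by GC content and 0.04 without CPEB2 IgG replicate 2. The other Grin1 probe, A_55_P2033366, was dim, at 27.1 and 26.6 with CPEB2 IgG against 37.8 and 43.7 with control IgG. Its groups did not overlap, with control IgG higher, and the log2 fold change of -0.54 ± 0.21 (SD, n = 2) had an adjusted p of 0.212. It came to -0.0468 after centring by GC content and to -0.0843 under normexp background correction.

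Grin2c encodes GluN2C, best known from the cerebellum, and its experiments differed the most among the 11 probes. The processed signal was 505 and 651 on the CPEB2 IgG arrays and 1134 and 482 on those of control IgG. Control IgG replicate 1 stood apart from the other 3 arrays, and control IgG replicate 2 was the lowest of the 4. The log2 fold change was -1.08 in experiment 1 and 0.46 in experiment 2, and the mean of -0.31 ± 1.09 (SD, n = 2, adjusted p = 0.632) became 0.27 without control IgG replicate 1. Of all probes tested, 25.3% had opposite signs in the experiments. A split at least as wide in both experiments, and in the same order, was found at 266 of the 41134 probes, this one included, and its mirror image at 387.

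Grin2d and Grin3b were each measured by a single dim probe. Grin2d encodes GluN2D, a subunit of early development and of interneurons in the adult. Its probe, A_55_P2125997, read 33.4 and 24.0 with CPEB2 IgG against 38.7 and 30.9 with control IgG. The groups overlapped, and the log2 fold change of -0.24 ± 0.15 (SD, n = 2) had an adjusted p of 0.573, with the opposite sign under quantile normalization (0.0205) and centring by GC content (0.0767). Grin3b encodes GluN3B, known mainly from motor neurons. Its probe, A_51_P397934, read 8.92 and 21.5 with CPEB2 IgG against 23.0 and 28.0 with control IgG, and CPEB2 IgG replicate 1 was not well above background. The groups did not overlap, with control IgG higher, and the log2 fold change of -0.82 ± 0.65 (SD, n = 2) had an adjusted p of 0.132. It was -0.19 (adjusted p = 0.629) without CPEB2 IgG replicate 1, the array not above background, and -0.20 under normexp background correction. Without CPEB2 IgG replicate 2, the array left for CPEB2 IgG was the one not above background, and the brightest-probe fit then called Grin3b lower, at a log2 fold change of -1.46 and an adjusted p of 0.0372.

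Ordered by log2 fold change, the probes run from A_52_P531731 of Grin3a through A_51_P320357 of Grin2b and A_55_P1980471 of Grin3a to A_52_P1044964 of Grin2b, with no overlap between the experiments' ranges of neighbours so far. That last probe and A_55_P1980481 of Grin2a had overlapping ranges. The upstream Grin2a probe lay apart from its neighbours on either side, and from Grin2d down to Grin3b each probe overlapped the next one.

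In all 4 subunits with a pair of probes, the downstream probe had the higher log2 fold change. For Grin3a the probes lie 3410 bases apart on the genome and differed by 1.15 ± 0.29 (limma SE, n = 2 experiments), with an adjusted p of 0.0518 with the experiment block and 0.0321 without it. The differences for the other 3 subunits were 0.63 ± 0.29 for Grin2a (1535 bases, adjusted p = 0.173), 0.58 ± 0.30 for Grin2b (1587 bases, adjusted p = 0.211) and 0.29 ± 0.31 for Grin1 (995 bases, adjusted p = 0.529). The downstream probe was also the higher one in 72.9% of the 5151 genes with 2 or more tested probes on 1 strand, and the difference was called in that direction in 24% of them. Among the 3040 genes whose probes lie within 5000 bases, these shares were 71.8% and 18.8%. The direction in the subunits was that of most genes on the array.

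**Figure D3:**
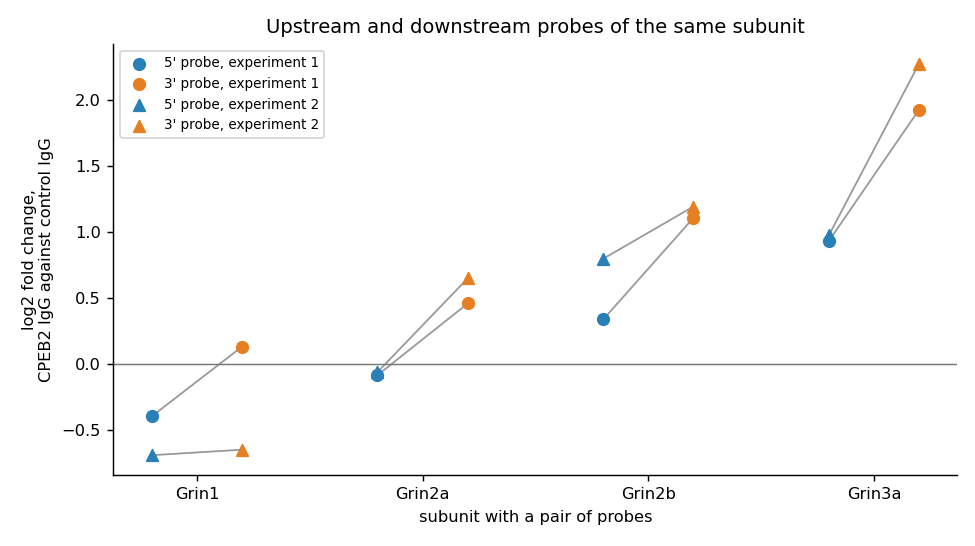
Log2 fold change of CPEB2 IgG over control IgG (vertical axis, log2 units) at the upstream (blue) and downstream (orange) probe of the 4 subunits with a pair of probes, with a line and a marker shape for each experiment. The downstream probe is the higher one in both experiments for each subunit, as it is on average in 72.9% of genes with 2 or more tested probes. For Grin2b the difference has the opposite sign (-0.26) after centring in 10 bins of GC content.

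The GC content of the probes moved with these values. Over all probes tested, the median log2 fold change was 0.34 at 35% GC, -0.31 at 45% and -0.52 at 55%. The change was not steady at the low end. At 33.3% GC (91 probes) the median was 0.08, with 15.4% called higher. At 36.7% GC (2189 probes) it was 0.05, with 19% called higher. The downstream Grin3a probe has a GC content of 36.7% and the upstream one 48.3%, and A_51_P320357 of Grin2b has 33.3% against 45% for A_52_P1044964. Set against the median of all probes with the same GC content, 8 of the 11 subunit probes were higher. The 3 that were not are A_55_P2033366 of Grin1, Grin2c and Grin3b. Values were also centred in 10 bins of GC content, which can each hold several GC contents and also take in dim, untested probes. After that, the difference between the Grin3a probes was 0.78 and that between the Grin2b probes was -0.26. The probes of Grin1 and of Grin2a do not differ in GC content and kept their differences. Centring in bins lowered A_51_P320357 of Grin2b from 1.15 to 0.62, whereas the 91 tested probes of its own GC content had a median of 0.08. Of 1866 tested probes with a CPE match, 27.8% were called higher, against 12% of those without one. The median GC content of those with a match was 35%, and among all tested probes of 35% GC the share called higher was 28.1%. Probes with and without a CPE match were not compared at equal GC content, and the part of GC content in this difference was not tested.

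With the brightest probe of each gene in place of all probes, 19696 genes were tested. Among the 7 subunits Grin3a was called higher (adjusted p = 0.00611) and none was called lower, beside 21.2% of all genes called higher and 20.4% called lower. The brightest Grin2b probe is the upstream one, and it had an adjusted p of 0.137 in this fit. With the mean of a gene's probes in place of the brightest, Grin2b was called too, at a log2 fold change of 0.86 and an adjusted p of 0.0431. The median of the 7 subunits was -0.24, but 0.02 under quantile normalization and 0.24 after centring by GC content. The median of all genes was -0.11, 0.016 and 0.08 in the same settings.

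The study's methods state a pair of thresholds, an enrichment of over 1.5-fold and a raw signal of over 1000. A gene was counted here if any of its probes passed both. The signal used here was the processed signal, taken from either CPEB2 IgG array. Grin2b and Grin3a passed, 2 of the 7 subunits, beside 13.9% of the 24164 genes with a value. Of the 7033 genes whose signal exceeded 1000, 47.7% passed. Among the subunits, only Grin1, Grin2a, Grin2b and Grin3a had such a signal. Grin2a, whose higher probe was at 1.47-fold, passed as well under median centring and in experiment 2 alone. At a signal above 2000 Grin2b alone was left. The methods add a CPE in the 3′-UTR as a further criterion, which was not applied here. The study itself lists Grin3a among the mRNAs past all its criteria whose translation in axons changed after learning. It set Grin3a aside because its function was mainly postsynaptic.

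The other ionotropic glutamate receptors, which carry fast excitatory transmission (AMPA), modulate it (kainate) or act as synaptic organizers (delta), form a family of 11 genes on the array. At the brightest probe 6 of these 11 were called higher, Gria2, Gria3, Gria4, Grik1, Grik3 and Grik5, and none was called lower. Their median log2 fold change was 1.1, from 3.59 and 2.92 for the kainate receptor genes Grik3 and Grik1 to 0.22 for the delta receptor gene Grid1 among the genes named here. Among 7 metabotropic glutamate receptor genes tested, which couple glutamate to G proteins, Grm5, Grm7 and Grm8 were called higher and none was called lower, with a median of 0.55. Grm5 was at 1.80, Grm7 at 3.14 and Grm8 at 2.01, while Grm3 was at 0.28 (adjusted p = 0.445). Beside them the NMDA receptor subunits had 1 of 7 called higher. Over all genes tested at the brightest probe, 21.2% were called higher and 20.4% lower. The difference between the families was not tested.

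**Figure D4:**
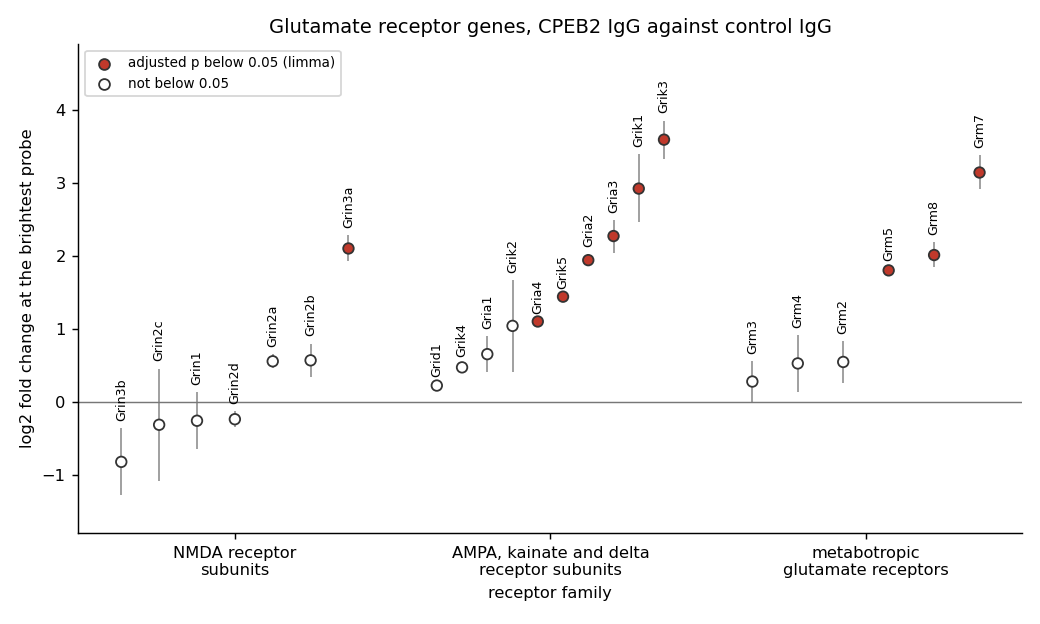
Log2 fold change at the brightest probe (vertical axis, log2 units) of glutamate receptor genes, by family, with the mean of the experiments as a circle, their range as a line, and filled circles for an adjusted p below 0.05 (limma). In the NMDA receptor family Grin3a is filled, against 6 genes in the AMPA, kainate and delta family and 3 metabotropic receptor genes, and 1 gene of each of these families is not drawn.

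Other genes that serve the NMDA receptor were taken from lists by role and read at the brightest probe. Of 17 tested genes for its transport and anchoring, 5 were called higher and 4 lower, with a median of 0.14, and the shares over all genes given above, 21.2% higher and 20.4% lower, apply to this and the next lists. The higher ones were the scaffold genes Dlg2 (0.85), Dlg3 (1.11) and Lin7c (1.86), the auxiliary subunit gene Neto1 (1.46) and the endosomal sorting gene Snx27 (1.20). The lower ones were Lin7b (-2.74), a paralog of Lin7c, the exocyst gene Exoc4 (-1.73), the adaptor gene Gipc1 (-1.13) and the actin cross-linker gene Actn2 (-1.01). Without the experiment block Dlg2 was no longer called (adjusted p = 0.155), and Lin7a, another paralog of Lin7c, was called lower (-0.80, adjusted p = 0.0356). Dlg4, which encodes PSD-95, the scaffold that binds GluN2 tails, was at -0.28 (adjusted p = 0.391), or 0.04 after centring by GC content.

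Among 22 genes for kinases and phosphatases that act on the receptor, 10 were called higher and 4 lower, with a median of 0.57. The call of 1 of the 10, the calcineurin gene Ppp3cb (1.06), was lost without the experiment block (adjusted p = 0.0702). Csnk2a1 (2.47), the catalytic subunit of casein kinase 2, and Dapk1 (2.32), a death-associated kinase, were the highest, and Csnk2b (-1.87), the regulatory subunit of casein kinase 2, and the tyrosine kinase gene Src (-1.51) were the lowest. Camk2b (-1.29), a subunit of CaMKII, was also called lower. Of 15 genes downstream of the receptor, 2 were called higher, the transcription factor gene Creb1 (1.31) and its coactivator gene Crtc1 (1.33). The 4 called lower were Rasgrf2 (-1.32), Mapk3 (-1.18), Nos1 (-0.97) and Calm3 (-0.89). Calm3 was at 0.26 after centring by GC content, but the brightest probe was picked anew in that setting. Camk2b, read at a probe of the same GC content (38.3%), moved only from -1.29 to -1.15. The 0.26 is therefore likely from another Calm3 probe, and not a change of sign at the same one. The median of the 15 genes was -0.40, or 0.10 after centring by GC content, with the brightest probes picked anew.

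For co-agonist supply, 12 genes were tested with a median of -0.38. Srr, which encodes the racemase that makes D-serine, was called higher at 1.16, and Phgdh (-3.91) and Psat1 (-1.40), both of the serine synthesis pathway, were called lower. The glycine transporter gene Slc6a9 was at 0.36 (adjusted p = 0.288). Among 4 tested genes whose names refer to the NMDA receptor but which encode no subunit, Narg2 was called higher (1.76) and Grina lower (-1.73), and Gprin1 (-0.24) and Gprin3 (0.18) were not called.

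The genes whose pattern over the 4 arrays lay nearest to a subunit were found by the Euclidean distance between scaled log2 values after each gene's own mean was subtracted. For Grin3a they were Peli1, at a distance of 0.03, and Erap1, at 0.05. Grin2b lay nearest to Bmpr2 (0.03) and Trim21 (0.04), Grin2a to Neurl1a (0.02) and Slain2 (0.02), Grin1 to Gm9963 (0.03) and Slc35d2 (0.03), and Grin2d to Mir17hg (0.03) and Flrt1 (0.04). Grin2c had Sp6 (0.10) as its nearest gene, and Grin3b had Zfp788 and Fam83d (both 0.20). Within a distance of 0.1 there were 61 genes for Grin1 and 13 for Grin3a, but 1 for Grin2c and 0 for Grin3b. These are likenesses over 4 arrays only.

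Markers of the labelled tissue were present, since all 8 listed markers of excitatory neurons of cortex and hippocampus were well above background on all 4 arrays. Of markers of regions outside the label, 3 of 5 for cerebellar granule cells passed the filter of 2 arrays, without the defining Gabra6 and Cbln3, and 4 of 5 for motor neurons, without Mnx1. Summed over a list, the scaled signal of excitatory markers was 82.2 and 95.6 times the array's 75th percentile with CPEB2 IgG against 116 and 125 with control IgG, with 1 of 8 called higher and 3 lower. For inhibitory neurons the sums were 77.5 and 74.5 against 133 and 140, with 4 of 8 markers called lower. Among 6 markers each, 3 were called lower for microglia, for oligodendrocytes and for astrocytes, and 2 astrocyte markers were called higher, with astrocyte sums of 94 and 85 against 81.6 and 60.3. In the limma fit without the experiment block, the oligodendrocyte markers Mag (adjusted p = 0.0613) and Mobp (adjusted p = 0.122) were no longer called. The part of cell types in the subunit values was not tested. Gapdh, the study's non-target mRNA, was called lower at -2.52, as was Gripap1, an interactor of the AMPA receptor scaffold GRIP, at -1.61. The mRNAs of Cpeb2 (2.89) and of Slc17a6 (1.96), the vesicular glutamate transporter VGLUT2, were called higher. Gripap1 was included because the study's text names its mRNA as a target of CPEB2. An mRNA level does not measure the protein pulled down, so the Cpeb2 value is no check of the antibody.

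**Figure D5:**
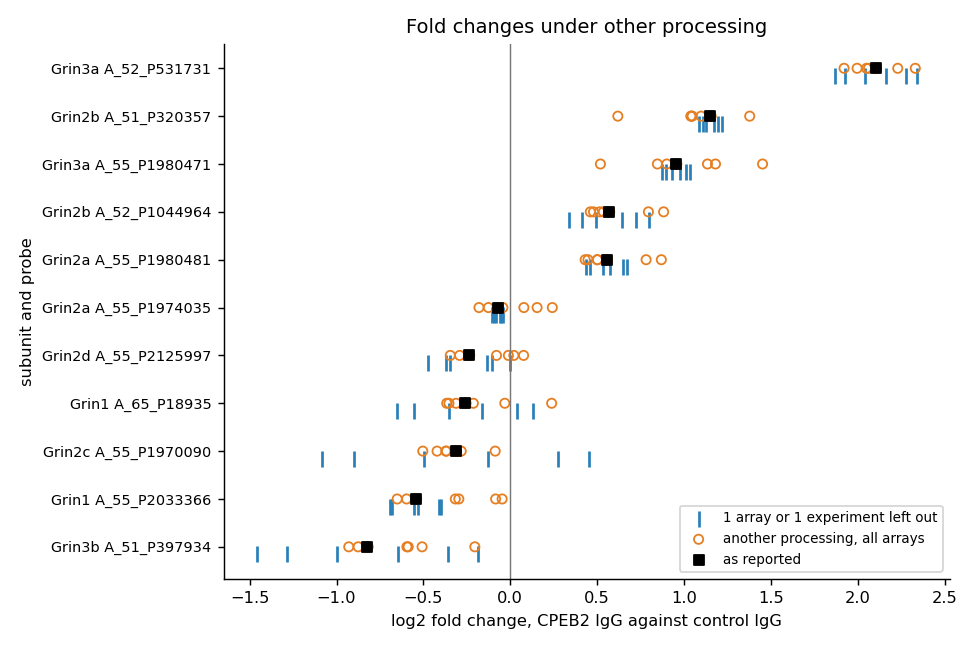
Log2 fold change of each subunit probe (horizontal axis, log2 units) as reported (black squares), under the other ways of processing with all arrays (open circles) and with 1 array or 1 experiment left out (blue ticks). The downstream Grin3a probe stays between 1.92 and 2.33 with all arrays, whereas A_65_P18935 of Grin1, A_55_P1974035 of Grin2a and the Grin2c and Grin2d probes lie on both sides of 0.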

How the data were processed

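The authors deposited, per array, the output of Agilent Feature Extraction 10.5.1.1, whose processed signal is a spot intensity after the software's background subtraction, with no normalization between arrays. Coordinates (mm9) and gene symbols came from the array annotation. Control spots and those flagged by the software as non-uniform or outlying were removed, and the log2 of each deposited intensity was taken minus the 75th percentile of the array's 55615 probes with a value on every array. Spots of a probe were averaged. limma 3.58.1 in R 4.3.3 was fitted to probes, or to the brightest probe per gene, with the experiment as a block and Benjamini-Hochberg adjustment over all features tested. The fit leaves 1 residual degree of freedom. To this limma added 4.444 prior degrees of freedom in the probe fit, which stand for the spread borrowed from all probes tested. The pairing comes from the divided lysate, and the correlation of the deviations of paired arrays was 0.206. Alternatives were other scalings, background correction, filters on dim or marked spots, no block, an intensity trend, centring by GC content, other thresholds and leaving out arrays. For centring by GC content, all probes with a value were split by rank of GC content into 10 bins. On each array the median of a bin was then subtracted. The fits with 1 array left out had no experiment block. Tables were made with Python 3.11.15, numpy 2.4.6 and pandas 2.3.3.

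The subunits and gene lists were chosen with earlier results of these data known. The tests between probes of a gene, the values by GC content and CPE match, and the count of probes like Grin2c were chosen after the values were seen. Named genes are the subunits, the checks, the 2 highest and 2 lowest genes of each list, calls counted as 5 or fewer, and the 2 genes nearest to each subunit. Some genes that this rule names are not reported here. Dlg4, Lin7a and Ppp3cb fall outside this rule and were added once their values had been seen. Of the genes called higher in larger lists, those of the ionotropic family are named in full.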

Additional observations from a re-analysis of the deposited data

How the results depend on the processing

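Of 15 other settings, the downstream Grin3a probe was called in all but the one with no filter on dim probes (adjusted p = 0.0961), and its log2 fold change was 1.92 to 2.33 with all arrays. With no filter, limma called 0 of 55615 probes (7020 higher and 9073 lower at an unadjusted p below 0.05), against 5228 higher and 6095 lower with it, and 0 of the subunit probes (3 higher and 0 lower unadjusted). Without the experiment block 3 subunit probes were called higher, the upstream Grin3a probe being the third, and Grin3b moved from an adjusted p of 0.132 to 0.263. With an intensity trend 4 were called higher, with 1 array left out 1 to 2, and A_51_P320357 of Grin2b was called in 11 of 16 settings. Over all 41134 probes, 5432 were called higher without the block and 7224 with the trend. At the brightest probe 3 genes, Grin2a, Grin2b and Grin3a, were called higher under normexp background correction, an intensity trend or centring by GC content, and 2 with the mean of probes. Over all 19696 genes, the same settings called 4969, 4923, 4913 and 3689 higher, in that order, against 4174 in the main fit. With 1 array left out, 0 to 1 gene was called lower and 1 higher. The count past the study's thresholds was 1 with a signal above 2000, and 2 to 3 with either experiment left out. Signs changed at 4 probes that were never called. Centring by GC content gave 0.24 for A_65_P18935 of Grin1, 0.24 for A_55_P1974035 of Grin2a and 0.0767 for Grin2d, quantile normalization 0.0783 and 0.0205 for the last pair, and median centring 0.15 for A_55_P1974035. With arrays or experiments left out, A_65_P18935 of Grin1 ranged from -0.65 to 0.13 (0.04 without CPEB2 IgG replicate 2), Grin2c from -1.08 to 0.46 (0.27 without control IgG replicate 1) and Grin2d from -0.48 to 0.00026. Over all probes, leaving out 1 array gave 2740 to 5010 higher and 2542 to 6333 lower. Median centring moved the median of all probes from -0.20 to 0.02, with 7500 higher and 5594 lower, and centring by GC content gave 6664 and 5288. The planned match of probes to transcripts and proteins was not run. The fold changes of Grin2d and Grin3b rest on low signals. With 1 array left out, the fit had no experiment block, and the lone array of its antibody was taken to vary like the others. The cause of these changes in calls was not tested.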
